A study of Mus musculus with 12 samples.

Results

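The Dlk1-Dio3 miRNAs described here are 52 mature miRNAs from 39 hairpins of the imprinted Dlk1-Dio3 region on mouse chromosome 12, chosen by name as those whose hairpins lie outside the transcript antisense to Rtl1. All 52 were listed in the hippocampus table of 1158 usable entries, and 51 in the table of adipose tissue extracellular vesicles (EVs) of 1084 entries, in which miR-493-3p was not listed; the tables together held 1390 entries. The study sequenced small RNA of male wild-type C57BL/6J mice after 12 weeks on chow or on a high-fat diet (HFD), with 3 libraries each of EVs from chow mice, EVs from HFD mice, hippocampus from chow mice and hippocampus from HFD mice. EVs are membrane-bound particles that cells release and that carry small RNA, and the hippocampus is the brain region known for memory formation. The hippocampal control columns are headed LFD and were taken as the chow samples of the labels. The fat depot, the EV isolation, the make-up of the diets, the age of the mice and whether EVs and hippocampus came from the same mice were not given in the sources used here. Nothing states that the 3 libraries of a group came from separate mice, so p-values measure the spread between libraries, which may be technical.

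In the Dlk1-Dio3 region the paternal chromosome expresses the protein-coding genes Dlk1, Rtl1 and Dio3, and the maternal chromosome expresses long noncoding RNAs, among them Meg3, Rian and Mirg, from which many miRNA hairpins are cut. Each hairpin can give a mature miRNA from its 5′ arm (5p) and from its 3′ arm (3p), and a mature miRNA recognises its targets mainly through its seed, bases 2 to 8. The stretch of hairpins from miR-379 to miR-410 is known for high expression in brain, where neuronal activity induces its transcription in rat neurons. Its members include miR-134, known to act on Limk1 mRNA in dendrites of rat hippocampal neurons, and miR-485, known to act on the synaptic vesicle protein gene Sv2a in the same cell type.

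The hairpins lie on the plus strand between chr12:109563692-109743795 (GRCm38). In order along the chromosome, 6 hairpins with 11 members lie between the start of Meg3 and Rtl1, of which miR-770 lies in an exon of Meg3 and the others between annotated genes. The introns of Rian hold 2 hairpins with 2 members, miR-341-3p and miR-370-3p. Between Rian and Mirg lie 19 hairpins with 22 members, from miR-379 to miR-539, outside annotated genes. Mirg holds 12 hairpins with 17 members, from miR-382 to miR-410, of which 11 members lie in exons and the others in introns.

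The sequences the results turn on are shown in their order along the locus with the seed in capitals (RefSeq, GRCm38.p6; 49 of the 52 members matched). They are the 5 members that differed with diet in hippocampus (miR-770-5p, miR-543-3p, miR-382-3p, miR-668-3p and miR-496a-3p), the member that was higher in EVs than in hippocampus (miR-494-3p), the most abundant members, and partners of the same hairpin or of nearly the same sequence; the prefix mmu, for mouse, is left out elsewhere.
mmu-miR-770-5p: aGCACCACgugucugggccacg
mmu-miR-770-3p: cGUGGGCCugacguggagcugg
mmu-miR-370-3p: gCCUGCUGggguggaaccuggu
mmu-miR-379-5p: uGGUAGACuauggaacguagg
mmu-miR-379-3p: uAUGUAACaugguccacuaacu
mmu-miR-411-5p: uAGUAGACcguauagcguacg
mmu-miR-411-3p: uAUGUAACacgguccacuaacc
mmu-miR-494-3p: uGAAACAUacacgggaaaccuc
mmu-miR-543-3p: aAACAUUCgcggugcacuucuu
mmu-miR-495-3p: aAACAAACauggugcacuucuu
mmu-miR-300-3p: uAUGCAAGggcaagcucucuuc
mmu-miR-381-3p: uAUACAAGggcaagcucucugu
mmu-miR-382-5p: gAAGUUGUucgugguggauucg
mmu-miR-382-3p: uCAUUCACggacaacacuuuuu
mmu-miR-668-3p: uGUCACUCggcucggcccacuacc
mmu-miR-496a-3p: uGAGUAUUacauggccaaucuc
mmu-miR-541-5p: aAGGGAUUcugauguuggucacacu
mmu-miR-409-5p: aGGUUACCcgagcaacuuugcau
mmu-miR-409-3p: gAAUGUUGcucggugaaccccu

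The 49 members with a sequence had 48 distinct seeds. The only seed held by more than 1 member was AUGUAAC, of miR-379-3p and miR-411-3p, which differed at 2 of 22 bases over their length. Aligned from the first base, miR-300-3p and miR-381-3p differed at 3 of 22 bases, miR-495-3p and miR-543-3p at 4 of 22, and miR-376a-3p and miR-376b-3p at 3 of 21. How the authors assigned reads that fit more than 1 of these is not given in the sources used here. The 2 members of the miR-299a hairpin have near copies, miR-299b-3p and miR-299b-5p, whose sequences lie within theirs or hold them, and which held 17 and 18 counts over the 6 hippocampal libraries against 2640 and 349 for miR-299a-3p and miR-299a-5p. Transcripts of the miR-376 family are known to undergo A-to-I editing in brain, and whether edited reads were counted is likewise not given.

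Library totals were 1825488 to 5941955 counts in EVs, 2331091 to 5723918 in chow hippocampus and 11143775 to 12874600 in HFD hippocampus. A count of 0 allows a level of up to 0.505 to 1.64 CPM (counts scaled to a common library total) in an EV library and 0.233 to 1.29 in a hippocampal one, taking 3 counts as the upper limit and covering counting error only. Of the members 40 to 49 were detected per EV library and all 52 in every hippocampal library. Markers set the sample types apart: the neuronal miR-124-3p held 0 to 4 counts per EV library and 3055 to 75399 per hippocampal library. The summed level of a list of 12 neuronal miRNAs, of which miR-383-5p was not listed in the EV table, was 1540 to 2990 CPM in EVs, most of it from miR-128-3p and miR-218-5p, against 75100 to 123000 CPM in hippocampus. Chow hippocampus library 3 stood apart from the other chow libraries in several members named below.

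The first question was how much of these miRNAs each sample type held. The 52 members together took 0.139%, 0.202% and 0.120% of the counts in the 3 chow EV libraries and 0.158%, 0.131% and 0.142% in the 3 HFD EV libraries. In hippocampus they took 3.61%, 3.55% and 2.43% of the counts in chow and 3.19%, 3.33% and 3.44% in HFD libraries. The shares of EVs and hippocampus did not overlap, and within each type the shares of the diets overlapped. The chow EVs had a mean share of 0.154% ± 0.0433 (SD, n = 3) and the HFD EVs one of 0.144% ± 0.0136 (exact permutation test, two-sided, p = 0.9). It was 3.2% ± 0.664 in chow and 3.32% ± 0.125 in HFD hippocampus (exact permutation test, two-sided, p = 1), in a design whose smallest possible p is 0.1. Without chow EV library 2 the difference of the EV diets turned from -0.00977 to 0.0146 percentage points, and without chow hippocampus library 3 that of the hippocampal diets turned from 0.121 to -0.262.

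Levels below are CPM scaled with TMM factors within each table, so they compare libraries of 1 table directly, and the 2 tables only roughly. The median member stood at 5.24 CPM in EVs and 108 CPM in hippocampus. Of the 51 members in EVs 4 had a mean of at least 100 CPM and 25 one under 5 CPM, against 26 and 2 of the 52 in hippocampus. The 5 most abundant members held 66.8% of the members' summed level in EVs and 73.3% in hippocampus. miR-381-3p, miR-411-5p and miR-379-5p were among the 3 most abundant in both. Across the 51 members in both tables the order of mean levels was related between EVs and hippocampus with a Spearman rho of 0.779, given as a description, since members share hairpins and libraries and differ in how well each sequence is captured.

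**Figure D1:**
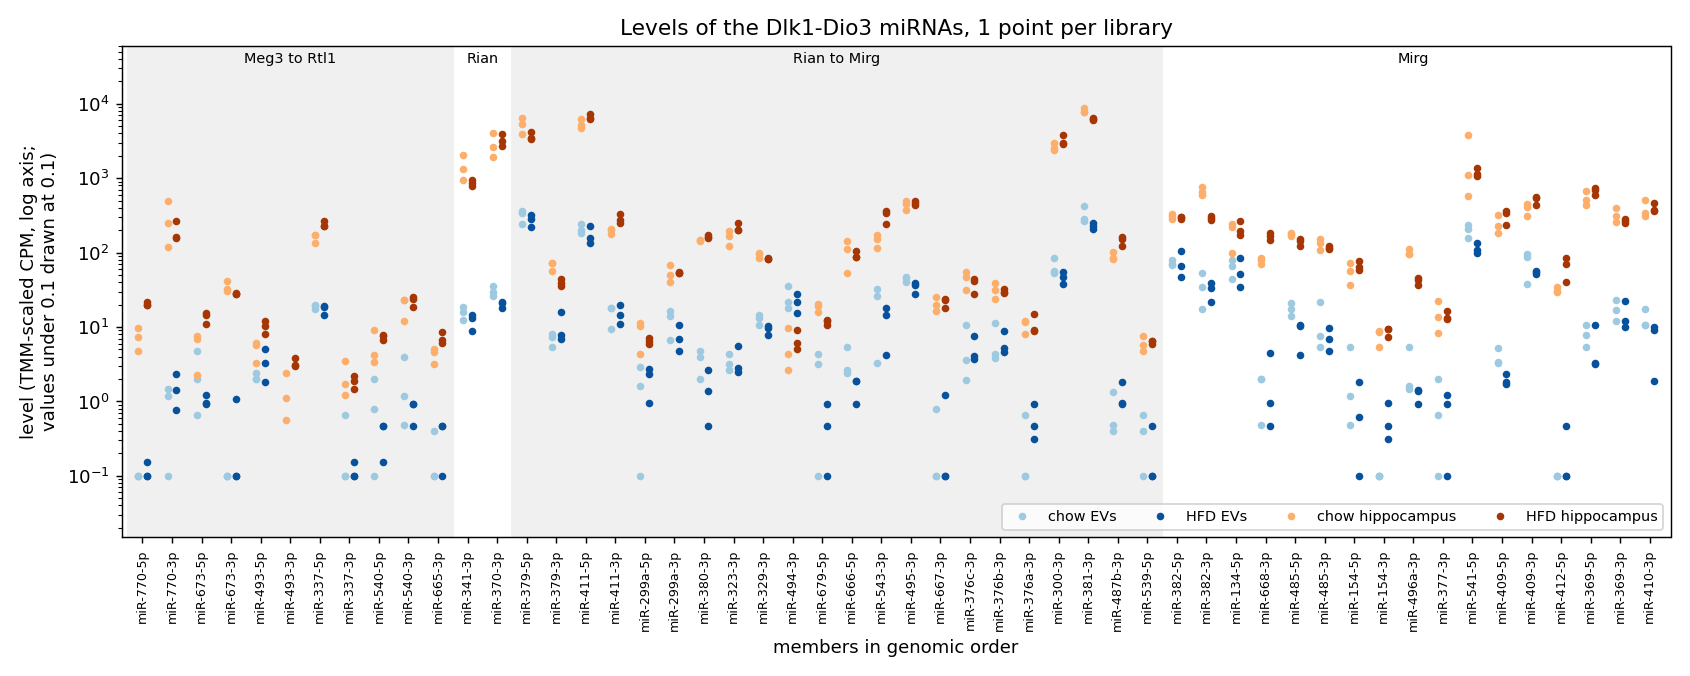
Level of each member (vertical axis, TMM-scaled CPM on a log axis, values under 0.1 drawn at 0.1) in genomic order, with 1 point per library and 3 libraries per group. The hippocampal points lie above the EV points for nearly every member, and miR-494-3p is the exception that was called higher in EVs.

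In EVs miR-379-5p, of the first hairpin after Rian, had the highest mean level, with 239, 368 and 337 CPM in chow and 318, 220 and 282 CPM in HFD libraries. miR-381-3p followed, with 281, 267 and 426 CPM in chow and 248, 211 and 227 CPM in HFD libraries, which did not overlap. miR-411-5p had 205, 242 and 186 CPM in chow and 231, 157 and 136.2 CPM in HFD libraries. miR-411-5p was below the other 2 in every EV library. The order of miR-379-5p and miR-381-3p changed from library to library, so it is within the spread. miR-541-5p, from a Mirg intron, had 208, 235 and 158 CPM in chow and 133, 107 and 98.2 CPM in HFD EVs, again without overlap. miR-382-5p, from a Mirg exon, had 68.7, 79.8 and 69.4 CPM in chow and 66.9, 46.7 and 105 CPM in HFD EVs. miR-409-3p had 86.2, 95.0 and 37.4 CPM in chow and 54.2, 52.2 and 56.8 CPM in HFD EVs. For the latter 2 the diets overlapped, with chow library 3 the lowest of all for miR-409-3p and HFD library 3 the highest for miR-382-5p.

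In hippocampus miR-381-3p had the highest mean level over both diets, with 8796, 7853 and 7876 CPM in chow and 6190, 6459 and 6043 CPM in HFD libraries. miR-411-5p had 4690, 6342 and 5137 CPM in chow and 7212, 6325 and 6526 CPM in HFD libraries, so that miR-381-3p was the higher in every chow library, and miR-411-5p had the higher mean in HFD libraries, 6687 against 6231 CPM, with overlap. miR-379-5p had 5428, 6411 and 3957 CPM in chow and 4196, 3351 and 3463 CPM in HFD libraries. The next ranks were held by miR-370-3p from Rian, at 1928, 4049 and 2621 CPM in chow and 3958, 2707 and 3204 CPM in HFD libraries, and by miR-300-3p. The latter, whose sequence is close to that of miR-381-3p, had 2955, 2405 and 2542 CPM in chow and 3806, 2911 and 2960 CPM in HFD libraries. miR-541-5p had 577, 1089 and 3808 CPM in chow and 1139, 1080 and 1378 CPM in HFD hippocampus, and chow library 3 alone was above all others.

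The parts of the locus contributed unequally. The hairpins between Rian and Mirg held 64.3% ± 4.63 of the members' counts in chow EVs and 66.2% ± 2.30 in HFD EVs, compared with 69.1% ± 3.50 and 69.7% ± 1.2 in chow and HFD hippocampus (SD, n = 3 each). Mirg held 31.3% ± 4.30 and 29.3% ± 2.68 in EVs and 16.5% ± 5.06 and 15.3% ± 1.18 in hippocampus. The 2 Rian members held 2.74% ± 0.324 and 2.52% ± 0.209 in EVs and 12.8% ± 2.10 and 13.2% ± 1.21 in hippocampus. The 11 members between Meg3 and Rtl1 held 1.58% to 1.97% in the means of all 4 groups. The share of Mirg was thus higher, and that of Rian lower, in EVs than in hippocampus in both diets by more than the SDs of the groups.

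The comparison of EVs with hippocampus asked which members the EVs carried relative to the brain region. In chow mice 47 of 50 tested members were lower in EVs and 1 was higher (edgeR's quasi-likelihood test, Benjamini-Hochberg adjusted p under 0.05, which is the meaning of called throughout), where 44.9% of the 519 miRNAs tested were lower and 34.5% higher, 79.4% in either direction. In HFD mice 49 of 50 were lower and 1 higher, against 42.6% lower and 38.9% higher among all miRNAs, 81.5% in either direction. Of the 50 members, 25 passed the filter on low counts within EVs too; the other 25 entered through their hippocampal counts, so that their being lower in EVs was largely fixed by the filter and supports nothing. Of the 25 that passed in both tables on their own, 24 were lower in EVs and 1 higher in either diet, at medians of -3.09 and -3.42. Over all 335 miRNAs that passed in both tables, 35.2% and 32.2% were lower, 39.4% and 44.5% higher, and the medians were 0.14 and 0.59, in chow and HFD mice. Over the 50 members tested the median log2 difference, EVs minus hippocampus, was -3.91 in chow and -4.15 in HFD mice, against medians over all tested miRNAs of -0.52 and 0.07. EVs and hippocampus differ in tissue, in material (released particles or tissue) and in count table. These cannot be told apart in any comparison of EVs with hippocampus. Nor can fewer contributing cells of a type and less RNA per cell in bulk samples. The neuronal markers above moved the same way, with miR-124-3p at or near 0 in every EV library, and their part in the result was not tested. With library totals in place of TMM factors the median of all miRNAs moved to -0.83 in chow and -0.22 in HFD mice, and 48 and 49 members were called lower.

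The largest differences lay among members that the EV libraries hardly held. The members named in this paragraph entered the test through their hippocampal counts, so their being lower in EVs was largely fixed by the filter. Their values describe the counts only. In chow EVs 4 members had 0 counts in all 3 libraries, and their levels in hippocampus give lower bounds, set by 3 counts over the group. miR-673-3p, whose hairpin lies between Meg3 and Rtl1, was at least 72.3-fold lower in EVs, with 30.8, 32.0 and 42.0 CPM in chow hippocampus. miR-412-5p, from Mirg, was at least 70.1-fold lower, miR-154-3p, also from Mirg, at least 15.7-fold, and miR-770-5p at least 14.8-fold. The median difference in chow with these members at their bounds was -3.88. miR-770-3p had 6 counts over the chow EV libraries against 4194 in chow hippocampus, which puts its pooled level in hippocampus between 175-fold and 1040-fold higher (exact 95% interval, counting error only).

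In HFD mice, for which none of the tested members was at 0 in all 3 EV libraries, miR-412-5p had 1 count in EVs against 2531 in hippocampus, a ratio of pooled levels of 677 with an interval of 121 to 26800. For miR-770-5p it was 1 count against 790, a ratio of 211 with an interval of 37.8 to 8360. The width of these intervals comes from the single EV count, and neither member passed the filter within EVs. Members with more counts in EVs also differed widely: miR-370-3p, with 188 and 221 counts in chow and HFD EVs, was 106-fold and 153-fold higher in hippocampus by pooled counts.

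At the other end, miR-494-3p was the member called higher in EVs. It had 21.8, 35.1 and 18.0 CPM in chow EVs and 21.5, 15.3 and 27.7 CPM in HFD EVs, compared with 2.64, 4.37 and 9.66 CPM in chow and 5.11, 6.12 and 9.16 CPM in HFD hippocampus. Every EV library was above every hippocampal library. The log2 difference was 2.59 (SE 0.48, adjusted p = 0.00012, edgeR) in chow and 2.01 (SE 0.44, adjusted p = 0.000568) in HFD mice. The call held, at 1.46 to 3.09 on the log2 scale, under every alternative run and without each library in turn. Its hairpin lies among the others between Rian and Mirg, chr12:109715318-109715402. Its neighbours miR-329-3p and miR-679-5p, of which the latter did not pass the filter within EVs, were called lower in EVs at -2.64 and -2.51 in chow mice. The level of miR-494-3p rests on 160 counts over the chow and 231 over the HFD EV libraries.

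In chow mice the smallest differences next to miR-494-3p were those of miR-493-5p, miR-673-5p, miR-134-5p and miR-299a-3p; in HFD mice they were those of miR-493-5p, miR-299a-5p (-1.30), miR-134-5p and miR-379-3p (-1.62). miR-493-5p had 2.42, 1.995 and 2.002 CPM in chow EVs and 3.30, 6.12 and 5.68 CPM in chow hippocampus, a log2 difference of -0.997 (SE 0.54, adjusted p = 0.1, edgeR) that was not called. With library totals it was called at -1.27 (adjusted p = 0.034). miR-673-5p was not called in chow mice either, at -1.03 (SE 0.62, adjusted p = 0.137), with 4.84, 1.995 and 0.668 CPM in EVs. Without chow EV library 1 it was called at -1.75 (adjusted p = 0.0361). In HFD mice both were called lower, at -1.13 (adjusted p = 0.0287) and -3.27 (adjusted p = 0.000198), though neither passed the filter within EVs. The call of miR-493-5p there ended without HFD EV library 2, or HFD hippocampus library 2 or 3 (adjusted p = 0.0661, 0.0788 and 0.1), and with entries of the same reads kept once (0.178).

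miR-134-5p, the dendritic regulator, had 66.3, 80.2 and 44.7 CPM in chow EVs against 246, 219 and 98.8 CPM in chow hippocampus, with library 3 the lowest in both. Its log2 difference in chow was -1.39 (SE 0.48, adjusted p = 0.0142, edgeR), and the call ended without chow EV library 3, or chow hippocampus library 1 or 2 (adjusted p = 0.0569, 0.0947 and 0.0958), and with entries of the same reads kept once (0.0844). In HFD mice it was -1.53 (SE 0.48, adjusted p = 0.00779). miR-299a-3p was lower in EVs by -1.78 in chow and -2.46 in HFD mice (adjusted p = 0.00103 and 5.66e-05). The abundant members lay nearer the median: miR-379-5p was lower in EVs at -3.87 (SE 0.37) in chow and -3.39 (SE 0.36) in HFD mice, miR-381-3p at -4.42 and -4.41 (SE 0.32 each), and miR-411-5p at -4.45 (SE 0.35) and -4.90 (SE 0.36).

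By part of the locus, the median log2 difference between EVs and hippocampus in chow and HFD mice was -6.36 and -6.39 for the 2 Rian members, -3.64 and -4.16 for the 22 members between Rian and Mirg, -4.02 and -3.76 for the 17 of Mirg, and -3.32 and -4.23 for the 9 tested between Meg3 and Rtl1. In that order 2, 12, 10 and 1 of them passed the filter on low counts within EVs. The other members entered through their hippocampal counts. The medians of all parts but Rian were thus in part fixed by the filter, and the parts are not compared. Both Rian members, miR-341-3p at -6.35 and -5.80 and miR-370-3p at -6.36 and -6.98, were called lower in both diets.

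The 2 arms of a hairpin are cut from the same precursor in equal number, and which arm stays is set afterwards, so their ratio does not depend on how much precursor was made. The hairpins of miR-382 and miR-409, both in Mirg, are shown with the mature arms in capitals, since their arm balance differed most in chow mice among the 4 member hairpins tested (RefSeq, GRCm38.p6, plus strand, chr12:109733771-109733846 and chr12:109743158-109743236).
miR-382 hairpin: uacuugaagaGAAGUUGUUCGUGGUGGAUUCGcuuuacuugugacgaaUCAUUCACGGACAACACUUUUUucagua
miR-409 hairpin: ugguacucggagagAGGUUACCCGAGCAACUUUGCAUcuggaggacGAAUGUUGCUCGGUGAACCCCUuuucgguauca

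For miR-382 the 5p arm held most counts of the hairpin in EVs and fewer in chow hippocampus. Its share was 68.6% ± 11.8 in chow EVs and 69.2% ± 3.19 in HFD EVs, with 31.8% ± 3.80 in chow and 50.2% ± 2.12 in HFD hippocampus (SD, n = 3 each). The lowest EV library stood at 56.2% and the highest hippocampal one at 52.0%, so the types did not overlap. The log2 ratio of 5p to 3p counts was higher in EVs by 2.28 (SE 0.38, adjusted p = 0.00042, limma) in chow and 1.16 (SE 0.38, adjusted p = 0.024) in HFD mice. The HFD call ended without HFD EV library 2 or 3 (adjusted p = 0.0503 and 0.0702), or HFD hippocampus library 1, 2 or 3 (adjusted p = 0.0518, 0.0746 and 0.0587).

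For miR-409 the balance differed the other way. The 5p arm held 5.72% ± 2.26 of the counts in chow EVs and 3.48% ± 0.463 in HFD EVs, compared with 38.0% ± 8.10 in chow and 38.0% ± 7.31 in HFD hippocampus. The highest EV library was at 8.20% and the lowest hippocampal library at 28.7%. The log2 ratio of 5p to 3p was lower in EVs by -3.31 (SE 0.40, adjusted p = 5.99e-05, limma) in chow and -3.96 (SE 0.40, adjusted p = 1.29e-05) in HFD mice, and both calls held without each library in turn and under the alternatives in which the hairpin could be tested.

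The miR-379 and miR-411 hairpins were dominated by their 5p arm everywhere, at 96.4% to 98.9% and 91.9% to 96.5% in the group means. The 5p-to-3p ratio of miR-411 was lower in EVs by -0.95 (SE 0.31, adjusted p = 0.0222, limma) in chow and -1.05 (SE 0.31, adjusted p = 0.0152) in HFD mice. The chow call ended without chow EV library 1 or 2 or chow hippocampus library 2 (adjusted p = 0.0785, 0.0608 and 0.0855), and the HFD call without HFD hippocampus library 2 (adjusted p = 0.0522). That of miR-379 was lower by -1.73 (adjusted p = 0.00627) in HFD mice and stood at -0.82 (adjusted p = 0.131) in chow mice. Of this test more calls than the threshold allows were false on simulated data for the chow comparison, so calls near the threshold, such as that of miR-411, are weak. These 4 hairpins were the ones with at least 30 counts in every library, out of 13 with both arms among the members. Of the 110 hairpins tested in all, 50% were called in chow and 55.5% in HFD mice, so that 3 of 4 and 4 of 4 member hairpins stood over a background of frequent calls.

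Of hairpins with fewer counts in EVs, miR-369 had a 5p share of 32.1% ± 11.7 in chow and 27.8% ± 17.2 in HFD EVs, compared with 62.4% ± 8.78 and 71.9% ± 2.69 in chow and HFD hippocampus. Its EV libraries held as few as 29 counts, and it was not tested. For miR-485 the shares were 63.7% ± 12.9 and 53.3% ± 6.56 in EVs and 57.3% ± 3.51 and 54.2% ± 2.55 in hippocampus, which overlapped. In hippocampus miR-154 stood at 87.8% ± 1.35 and 88.4% ± 1.19, miR-299a at 13.8% ± 4.34 and 10.9% ± 1.08, and miR-540 at 21.9% ± 6.50 and 24.8% ± 4.29 in chow and HFD.

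**Figure D2:**
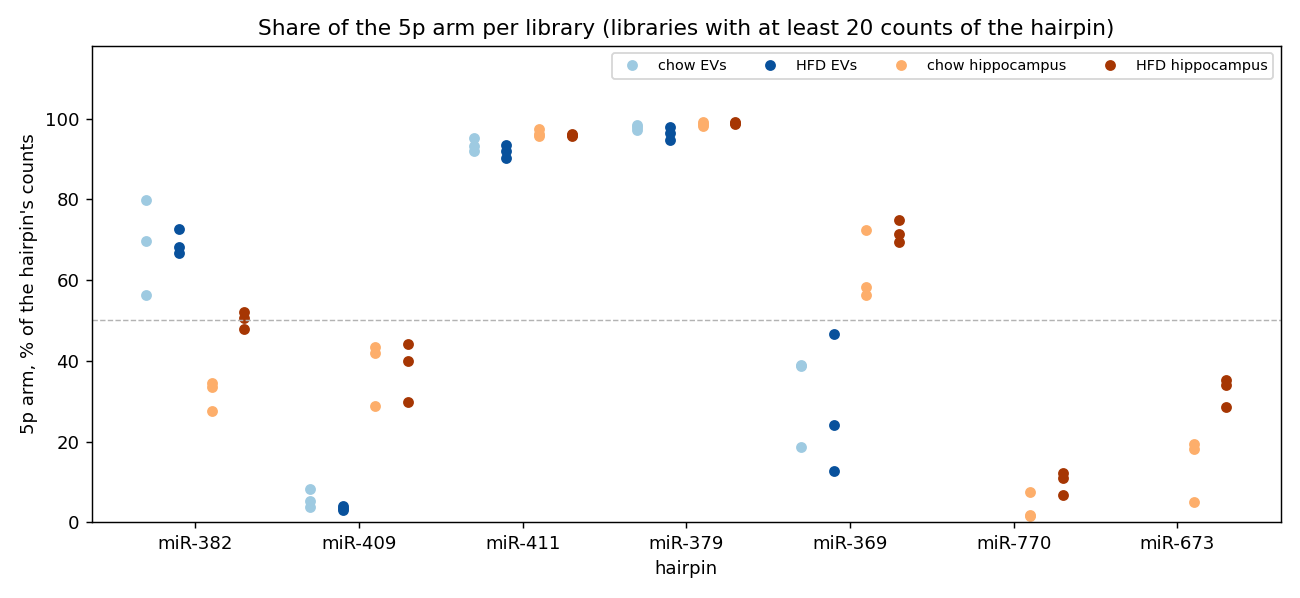
Share of the 5p arm among the counts of its hairpin (vertical axis, %) for 7 member hairpins, with 1 point per library that held at least 20 counts of the hairpin and colours for the 4 groups. The EV points of miR-382 lie above the hippocampal points and those of miR-409 below 10%, while the hippocampal points of miR-382, miR-770 and miR-673 are higher in HFD than in chow libraries for all libraries of miR-382 and miR-673.

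In hippocampus the question was which members differed with the diet. Those that rose in HFD hippocampus were miR-543-3p, miR-668-3p and miR-770-5p, 3 in all, and the 2 that fell were miR-382-3p and miR-496a-3p. These were 5.77% and 3.85% of the 52 tested, against 4.35% called higher and 7.43% called lower among the 552 miRNAs tested, or 11.8% in either direction. Their share was thus near the background. At an unadjusted p under 0.05 there were 18 members, a count without its background over all miRNAs, from which nothing is concluded. The diets did not overlap for 22 of the 52, or 206 of all 552 (37.3%). The median log2 difference, HFD minus chow, was 0.10 over the members and -0.13 over all miRNAs, with 31 and 243 above 0. Scaling by library totals moved the median of all miRNAs from -0.13 to 0.03.

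miR-770-5p, the member from the Meg3 exon, had 4.84, 7.35 and 9.66 CPM in chow and 19.7, 21.7 and 20.04 CPM in HFD hippocampus, without overlap (log2 difference 1.54, SE 0.28, adjusted p = 0.0200, edgeR). The other arm of that hairpin, miR-770-3p, is the more abundant, at 254, 495.5 and 119 CPM in chow and 269, 157 and 165 CPM in HFD libraries. It did not pass the test, at -0.56 (SE 0.48, adjusted p = 0.444), and stood at 0.17 without chow library 2.

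miR-668-3p, from a Mirg exon, had 69.3, 85.2 and 79.5 CPM in chow and 146, 170 and 186 CPM in HFD hippocampus (log2 difference 1.10, SE 0.22, adjusted p = 0.0235, edgeR). miR-543-3p, from between Rian and Mirg, had 152, 173 and 117 CPM in chow and 368.5, 240 and 338 CPM in HFD libraries (1.09, SE 0.25, adjusted p = 0.0285). All HFD libraries were above all chow libraries for both. miR-495-3p, with a sequence close to that of miR-543-3p and the next member hairpin downstream, had 498, 370 and 447 CPM in chow and 497, 432.6 and 471 CPM in HFD libraries, a difference of 0.09 (SE 0.19, adjusted p = 0.771).

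miR-382-3p fell from 756, 661 and 592 CPM in chow to 276, 313 and 294 CPM in HFD hippocampus (log2 difference -1.19, SE 0.18, adjusted p = 0.00967, edgeR). The 5p arm of the same hairpin, miR-382-5p, had 286, 331 and 312 CPM in chow and 299.4, 288 and 301 CPM in HFD libraries, a difference of -0.07 (SE 0.17, adjusted p = 0.830), and its sign turned with the scaling. miR-496a-3p, from a Mirg intron, fell from 113, 95.4 and 94.9 CPM to 42.5, 45.6 and 36.8 CPM (-1.28, SE 0.22, adjusted p = 0.0152). For both the chow and HFD libraries lay apart by more than the spread within either diet.

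The 5 calls did not hold with 5 libraries in every case, while the differences moved little. Without HFD hippocampus library 1 none was called (adjusted p = 0.0671 for miR-770-5p, 0.0606 for miR-668-3p, 0.0952 for miR-543-3p, 0.0606 for miR-382-3p and 0.0634 for miR-496a-3p), and without HFD library 3 none was either (0.0739, 0.103, 0.108, 0.103 and 0.108 in that order). That of miR-770-5p also ended without chow library 2 (0.0626) and that of miR-543-3p without chow library 1 (0.0595). The differences themselves stayed between 1.32 and 1.79 for miR-770-5p, 1.04 and 1.26 for miR-668-3p, 1.01 and 1.37 for miR-543-3p, -1.197 and -1.04 for miR-382-3p, and -1.26 and -1.06 for miR-496a-3p over the 6 omissions. With library totals the calls of miR-543-3p, miR-382-3p and miR-496a-3p ended (0.0538, 0.0545 and 0.0545), while fitting all 12 libraries at once ended those of miR-668-3p, miR-543-3p, miR-382-3p and miR-496a-3p (0.266, 0.365, 0.0763 and 0.0687).

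Calls among all miRNAs ranged from 8 to 123 over the 6 omissions, so counts of members have to be read against that. Without chow hippocampus library 3, 6 members were called higher and 4 lower, counts without their background in that run, from which nothing is concluded. The 5 above were among them, joined by miR-487b-3p at 0.88 (adjusted p = 0.0236, edgeR), miR-673-5p at 0.97 (0.0347), miR-411-3p at 0.65 (0.0381), miR-341-3p at -0.88 (0.0198) and miR-379-5p at -0.63 (0.0458). DESeq2 on all 6 libraries called 109 miRNAs, of 552 that passed the filter, where edgeR called 65. Among the 52 members it called 9 higher and 3 lower, which also included the 5. Those it added were miR-412-5p, miR-493-5p, miR-673-5p, miR-487b-3p, miR-337-5p and miR-411-3p, higher by 0.64 to 1.26, and miR-379-3p, lower at -0.67 (adjusted p = 0.0282). miR-379-3p and miR-411-3p, which share a seed and nearly their whole sequence, thus stood on opposite sides of 0. miR-379-3p had 71.8, 56.7 and 72.1 CPM in chow and 36.0, 43.8 and 38.7 CPM in HFD libraries, and miR-411-3p 206, 177 and 199 CPM in chow and 326, 254 and 277 CPM in HFD libraries. Neither passed edgeR's test on all 6 libraries (-0.76, adjusted p = 0.0607, and 0.56, adjusted p = 0.1).

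Other measures differed between the diets in hippocampus. Every HFD library was deeper than every chow library, and with counts thinned to the smallest total the same numbers of members, 3 higher and 2 lower, were called. The summed red cell markers stood at 246 to 637 CPM in chow and 78.7 to 159 CPM in HFD hippocampus, the liver marker miR-122-5p at 8.75 to 52.4 and 2.46 to 3.29 CPM, and the choroid plexus markers at 1560 to 2340 and 1030 to 1400 CPM. The skeletal muscle markers stood at 473 CPM or more in chow and 194 to 342 CPM in HFD libraries, the mesenchymal and smooth muscle markers at 16600 to 24800 and 13400 to 15600 CPM, and the endothelial markers at 4290 to 5190 and 5610 to 5780 CPM. These 6 lists did not overlap between the diets, while the 12 neuronal markers, at 75100 to 101000 and 84600 to 123000 CPM, did. Of the neuronal markers 0 were called higher and 3 lower in HFD. Their part in the members' differences was not tested.

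**Figure D3:**
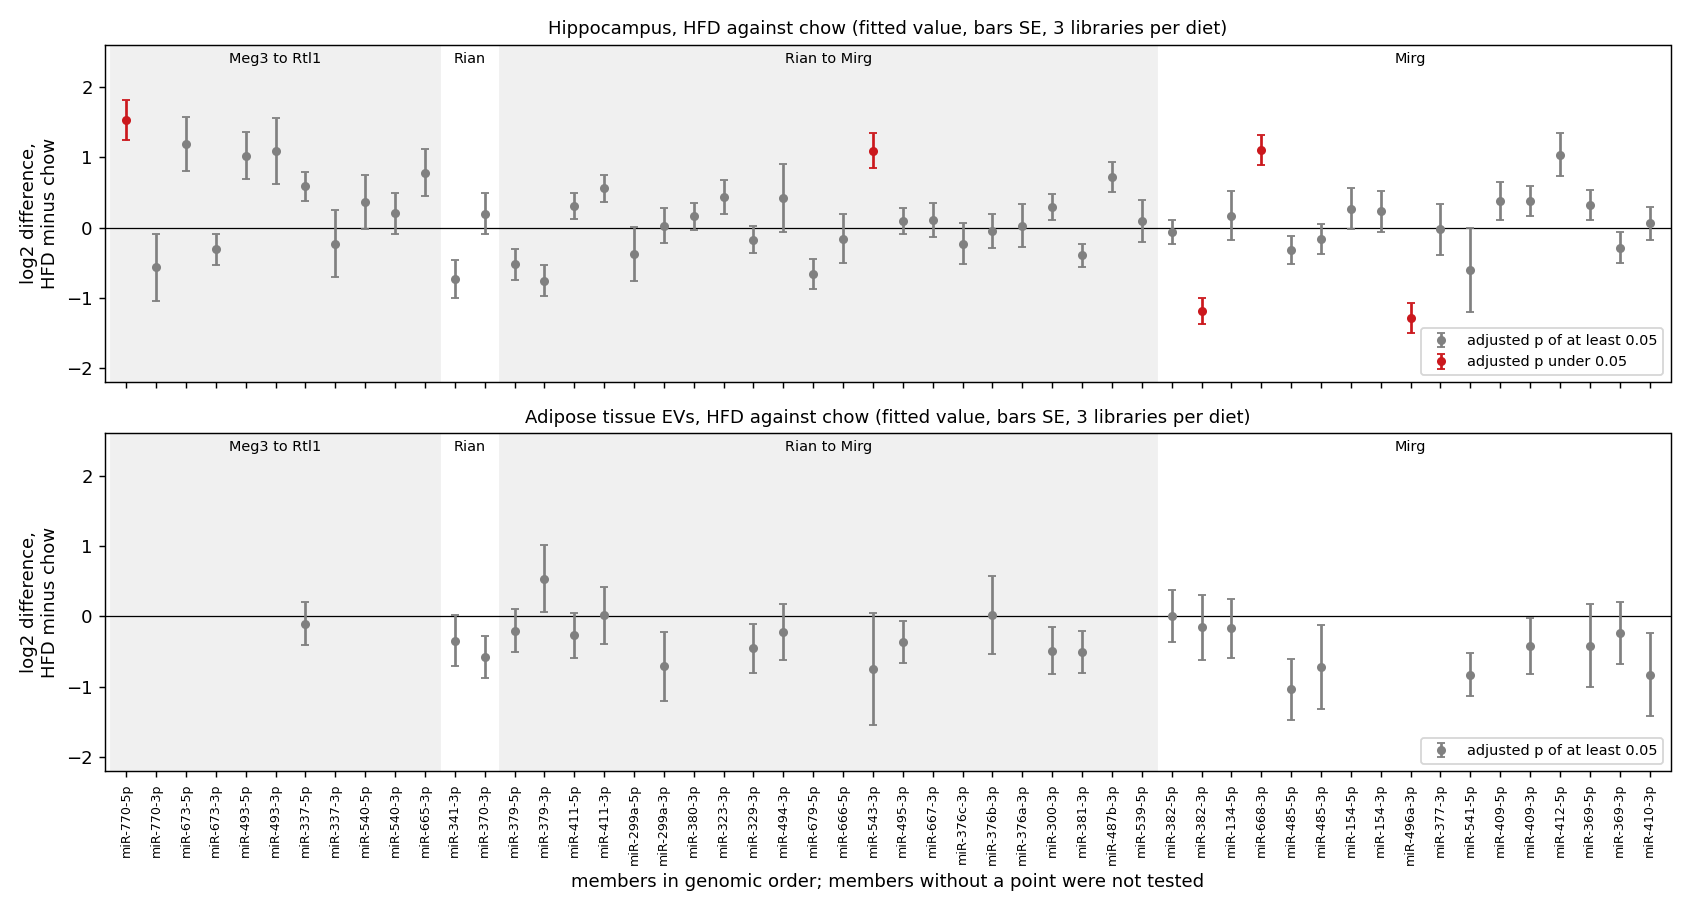
Log2 difference between HFD and chow (vertical axis; fitted value, bars SE, 3 libraries per diet) for each member in genomic order, in hippocampus (upper panel) and EVs (lower panel), with members at an adjusted p under 0.05 in red. In hippocampus 5 members are red, 3 above and 2 below 0, spread over 3 parts of the locus; in EVs 25 members were tested and none is red.

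**Figure D4:**
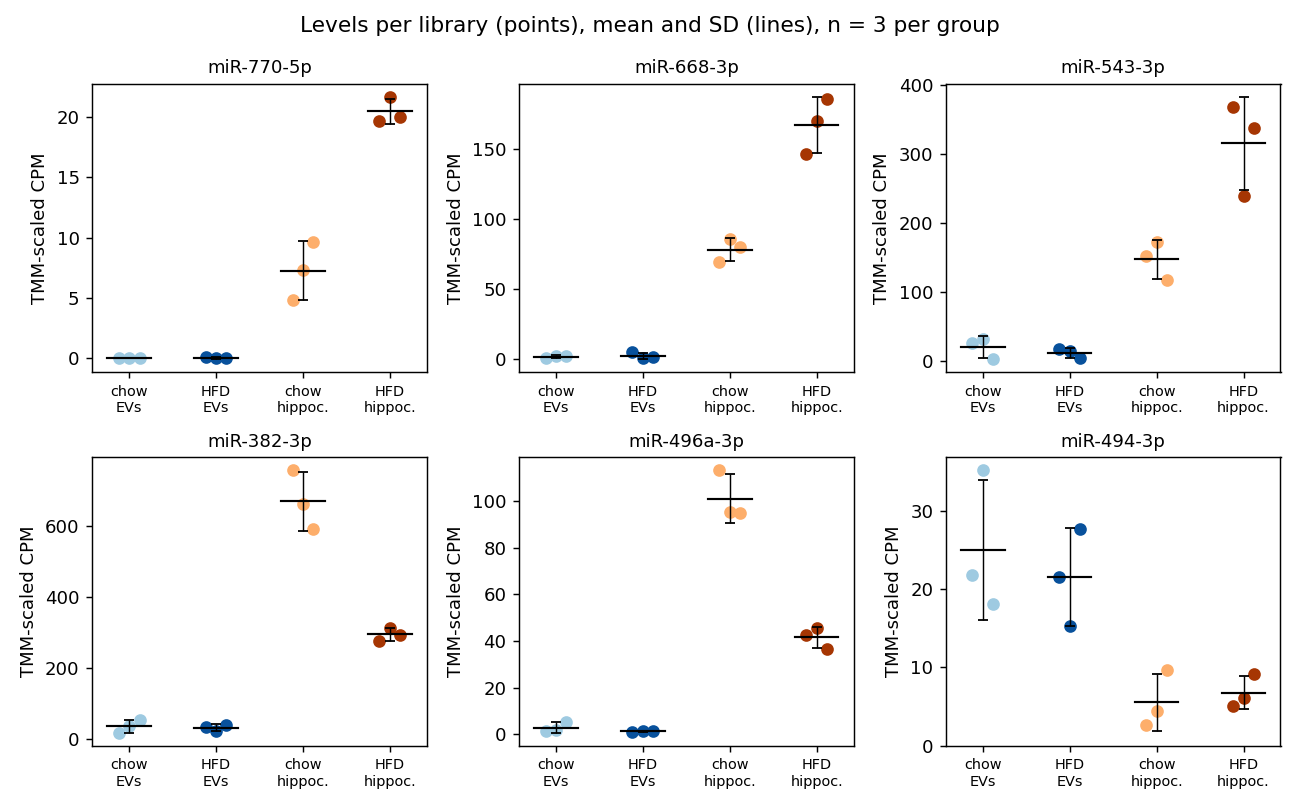
Level per library (vertical axis, TMM-scaled CPM, points) with mean and SD (lines, n = 3 per group) of the 5 members that differed with diet in hippocampus and of miR-494-3p. The hippocampal points of the 5 separate by diet, while miR-494-3p is higher in every EV library than in any hippocampal library.

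By part of the locus, 8 of 11 members between Meg3 and Rtl1 had a hippocampal difference above 0, with a median of 0.58, against 13 of 22 between Rian and Mirg (0.06), 9 of 17 in Mirg (0.06) and 1 of 2 in Rian (-0.27). Over all 552 miRNAs 44% were above 0, at a median of -0.13. Of the 11 members 1 was called. They come from 6 hairpins and are not independent, so the parts are described only. Among those between Meg3 and Rtl1 miR-673-5p, at 6.82, 7.70 and 2.27 CPM in chow and 14.5, 11.0 and 15.4 CPM in HFD libraries, and miR-493-5p, at 3.30, 6.12 and 5.68 CPM in chow and 8.07, 10.3 and 12.0 CPM in HFD libraries, did not overlap between the diets and did not pass (1.19, adjusted p = 0.0796, and 1.02, adjusted p = 0.0874).

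Since both miR-382 and miR-770 had 1 arm called and 1 not, the balance of the arms was tested between the diets in hippocampus. The 5p share of miR-382 was 31.8% ± 3.80 in chow and 50.2% ± 2.12 in HFD hippocampus, without overlap (difference of the log2 ratio 1.12, SE 0.28, adjusted p = 0.105, limma). That of miR-770 was 3.61% ± 3.37 and 9.94% ± 2.78 (1.89, SE 0.69, adjusted p = 0.198), and that of miR-673 was 14.2% ± 7.89 and 32.6% ± 3.59 (1.70, SE 0.58, adjusted p = 0.175). None passed: limma called 0 of 190 hairpins, 0% of them, with 41 at an unadjusted p under 0.05. Without chow hippocampus library 3 it called 20 of 215 hairpins, among them miR-382 at 1.21 (adjusted p = 0.0423) and miR-770 at 2.65 (adjusted p = 0.022).

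In EVs 25 of the 51 members held enough counts to be tested between the diets, and edgeR called 0 of them, where it called 4.37% of the 389 miRNAs tested, 3.34% higher and 1.03% lower in HFD. DESeq2 and limma-voom called 0 members too. An unadjusted p under 0.05 was less frequent among the members than among all 389 miRNAs tested, and 2 members had one. These were miR-485-5p, with 20.8, 17.6 and 14.0 CPM in chow and 10.4, 10.6 and 4.23 CPM in HFD EVs (log2 difference -1.04, SE 0.44, adjusted p = 0.187, edgeR), and miR-541-5p (-0.83, SE 0.30, adjusted p = 0.134). Of the 25 members 21 lay below 0, at a median of -0.36, against a median of -0.13 over all 389 miRNAs. Above 0 lay 16% of the members and 43.4% of all miRNAs. With library totals the median of all miRNAs moved to 0.16, and that scaling turned the sign of miR-379-5p. The diets did not overlap for 7 of the 25, where 32.6% of all miRNAs did not.

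Of 11 marker lists 6 did not overlap between the diets in EVs. The mesenchymal and smooth muscle markers stood at 11100 to 14600 CPM in chow and 5020 to 6580 CPM in HFD EVs, the endothelial markers at 2420 to 2620 and 967 to 1040 CPM, and the myeloid and leukocyte markers at 672 to 1010 and 1910 to 5870 CPM. The neural lineage markers, the 2 arms of miR-9, stood at 133 to 361 CPM in chow and 773 to 1920 CPM in HFD EVs, opposite in direction to most members. The choroid plexus markers stood at 332 to 432 and 117 to 286 CPM and the liver marker at 248 to 331 and 102 to 140 CPM. Their part in the members' levels was not tested.

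The diet effects of EVs and hippocampus were set against each other in 1 fit. None of the 50 members tested was called by edgeR, where 5.78% of 519 miRNAs were, 4.82% with the EV effect above and 0.963% with it below the hippocampal effect. Of the members 5 had an unadjusted p under 0.05, a smaller share than among all 519 miRNAs tested. limma-voom called 0 and DESeq2 4, all with the EV effect below the hippocampal effect: miR-673-5p, miR-409-5p, miR-300-3p and miR-337-5p, at -2.77 to -0.98 on the log2 scale. Without chow EV library 3 edgeR called 2, miR-543-3p at -2.54 (adjusted p = 0.0386) and miR-673-5p at -3.02 (adjusted p = 0.035). Calls among all miRNAs ranged from 15 to 42 over the omissions of 1 library. Of the 5 members called in hippocampus, miR-543-3p and miR-382-3p could be tested between the diets in EVs. There miR-543-3p stood at -0.75 (SE 0.79, adjusted p = 0.609, edgeR) and miR-382-3p at -0.16 (SE 0.46, adjusted p = 0.896), and the differences from the hippocampal effects were -1.70 (adjusted p = 0.270) and 1.16 (adjusted p = 0.243).

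Other miRNAs of the same region were tested in the same fits. Of the 10 Rtl1-antisense miRNAs (both arms of miR-127, miR-136, miR-431, miR-433 and miR-434), 0 of 7 tested in EVs and 1 of 10 in hippocampus differed with diet, miR-433-3p being higher in HFD hippocampus (0.996, SE 0.21, adjusted p = 0.0262, edgeR). All 10 were lower in EVs than in hippocampus in both diets, at medians of -4.27 and -5.58. Of the remaining mature miRNAs between Dlk1 and Dio3, 15 of 15 tested were lower in EVs in both diets. Of 23 tested in hippocampus miR-1193-3p was higher in HFD (1.41, SE 0.36, adjusted p = 0.0416), and 0 of 4 tested in EVs were called. Of the 10 and the 15 compared between EVs and hippocampus, 7 and 4 passed the filter on low counts within EVs too. For the others being lower in EVs was largely fixed by the filter and supports nothing. Among all 519 miRNAs tested, 44.9% were lower in EVs in chow and 42.6% in HFD mice.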

How the data were processed

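The authors deposited raw read counts per small RNA and library, 1 table for EVs and 1 for hippocampus. The submitters' processing notes name Bowtie; its version, the genome build, the miRNA annotation and the counting rules were not given in the sources used here. For hippocampus, 5 entries with a blank value in a used column were left out, and 1 further HFD column, which matched no sample label, was not used, so any library behind it is not analysed here. The members and lists were chosen with earlier results of these data known. Within each table, miRNAs were filtered with filterByExpr, scaled with TMM and tested with edgeR 4.0.16 (R 4.3.3; robust quasi-likelihood F test, two-sided, Benjamini-Hochberg over all miRNAs tested). EVs were compared with hippocampus, and the diet effects with each other, in 1 fit of all 12 libraries over the 852 shared entries. SE is the log2 difference divided by the square root of F. Ratios of pooled counts have exact 95% intervals that cover counting error only. Arm balance, a test added after seeing the data, used limma 3.58.1 on log2((5p + 0.5)/(3p + 0.5)) over hairpins with at least 30 counts in every library. Alternatives were other scalings, no filter, DESeq2 1.42.0, limma-voom, left-out libraries, a replicate block and thinned counts. Named members were those called between diets or in the difference of the diet effects, the 6 most abundant per table, the 5 largest and smallest EV-hippocampus differences and arm pairs at 5 CPM or more; others were named after seeing their values. No 2 libraries of a group agreed within sampling noise (chi-square per degree of freedom 80.4 to 704). The scripts were tested on simulated data, where the arm balance test made more false calls than its threshold allows for chow EVs against hippocampus. Positions are from RefSeq and host genes from GENCODE for GRCm38.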

Additional observations from a re-analysis of the deposited data

How the results depend on the processing

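Counts of called miRNAs moved most. For the EV diets 17 calls became 38 with library totals, 29 with RLE size factors, 56 without a filter, 55 with DESeq2, 31 with the same reads kept once, 38 in the fit of all 12 libraries and 9 with the replicate block, and 0 to 21 without 1 library; the members called stayed at 0 throughout. For the hippocampal diets 65 became 33 with library totals, 109 with DESeq2, 29 in the fit of all 12 libraries and 35 with the replicate block, and 8 to 123 without 1 library. The 3 members called higher there became 6 without a filter, 9 with DESeq2, 1 in the fit of all 12 libraries and 0 to 6 without 1 library; the 2 called lower became 0 with library totals, 0 in the fit of all 12 libraries and 0 to 4 without 1 library. For the difference of the diet effects 30 calls became 46 with RLE and 76 with DESeq2, which called 4 members lower, and 15 to 42 without 1 library, with 0 to 2 members called lower. The EV difference in the members' share became -0.0837 percentage points with the most abundant miRNA left out of the total. In the arm balance between hippocampal diets 0 calls became 1 with a minimum of 100 counts, 1 with a pseudocount of 1 and 0 to 20 without 1 library. The cause was not tested for any of these.

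Signs turned for members that were not called: miR-379-5p in EVs with library totals (0.069), miR-382-5p in EVs with limma-voom (-0.074), with the replicate block (-0.069) and over left-out libraries (-0.21 to 0.25), and miR-382-5p in hippocampus with library totals (0.10), RLE (0.017), no filter (0.11), DESeq2 (0.017) and over left-out libraries (-0.10 to 0.08). Over left-out libraries miR-411-5p in EVs ranged from -0.526 to 0.019, and in hippocampus miR-370-3p from -0.002 to 0.613, miR-770-3p from -0.89 to 0.17 and miR-541-5p from -0.996 to 0.571. Counts of members lower in EVs than in hippocampus stayed at 43 to 50 in either diet under every alternative, 43 in chow with the replicate block, and 1 member was called higher in each.

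The replicate numbers were not shown to pair the libraries: deviations of same-numbered libraries correlated at 0.003, -0.186 and -0.202 between the EV diets and at 0.062, -0.397 and 0.093 between the hippocampal diets, and between EVs and hippocampus at 0.078, 0.194 and 0.264 in chow and 0.143, 0.1 and -0.08 in HFD mice, where not every pair was over 0.1 either. With the block the call of miR-543-3p in hippocampus ended (adjusted p = 0.056, edgeR). In EVs 26 of the 51 members had too few counts to test between the diets, at totals within or near the range of chow hippocampus. The cause was not tested.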

Other observations

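The relation of GC content to the measured differences was looked at after seeing the data. Across the 49 members with a sequence, Spearman's rho between the GC content of the mature sequence and the hippocampal log2 difference (HFD minus chow) was 0.287, against 0.101 across the 470 of 552 tested miRNAs with a sequence. For the difference between EVs and hippocampus it was -0.208 in chow and -0.367 in HFD mice across 47 members, against -0.147 and -0.192 across 448 miRNAs. These are descriptions across miRNAs that share libraries, hairpins and base composition.

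miR-124-3p, the neuronal marker, stood at 1310 to 7310 CPM of the library total in chow hippocampus and 5070 to 5860 in HFD hippocampus. Chow library 3 had the lowest of these values. It was also the lowest chow library for miR-128-3p, at 20500 CPM, and miR-218-5p, at 27000 CPM. For miR-9-5p it was the highest chow library, at 286000 CPM. The part of this in the diet comparisons was not tested.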
